A study of Mus musculus with 18 samples.

Results

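The 33 genes described here encode the proteins that bring glucose into the cell, break it down to pyruvate and lactate, set the pace of that breakdown, and store or release glucose as glycogen. They were taken by symbol from a fixed list, matched to the Ensembl identifiers of the count tables, and all 33 were found among the 49315 identifiers measured and passed the low-count filter. By role they are the glucose transporters Slc2a1, Slc2a3 and Slc2a4, the upper and lower steps of glycolysis, lactate production and export, the PFKFB regulators, and glycogen synthesis and breakdown. RNA had been sequenced from dissected hearts of wild-type C57BL/6 mouse embryos, each library labelled as a pool of males and females. The stages, named by embryonic day, were E9.5 (3 libraries), E10.5 (4), E12.5 (4), E14.5 (3) and E16.5 (4), 18 libraries in all, with no treatment or mutation in any of them. Nothing in the labels ties the libraries to separate litters, so the p-values speak only of the spread between libraries, which may be technical.

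In glycolysis, glucose enters the cell through facilitative transporters, is trapped by hexokinase, committed by phosphofructokinase and carried through aldolase, phosphoglycerate mutase and enolase to pyruvate. Lactate dehydrogenase interconverts pyruvate and lactate, and monocarboxylate transporters move lactate across the cell membrane. Most of these steps are run by several isoforms, some found in many growing tissues and others typical of adult muscle, and the embryonic heart is known as a tissue that draws heavily on glucose before it turns to fatty acids around and after birth.

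Total counts per library ran from 30744015 to 45646538, and levels are given as CPM, a gene's share of the counts of its library after TMM, a correction for composition. All 8 cardiomyocyte markers (Tnnt2, Actc1, Myh6, Myh7, Myl7, Nkx2-5, Tnni1 and Ttn) were present in every library. Their summed level ran from 28229 to 33481 CPM at E9.5, 23148 to 25832 CPM at E10.5, 23660 to 25247 CPM at E12.5, 23846 to 26643 CPM at E14.5 and 34172 to 39534 CPM at E16.5. Of other cell types, 6 fibroblast markers summed to 262 to 348 CPM at E9.5, 773 to 973 CPM at E10.5, 2186 to 2843 CPM at E12.5, 3500 to 3859 CPM at E14.5 and 4565 to 5748 CPM at E16.5. The 10 erythroid markers ran from 5021 CPM in an E14.5 library to 51899 CPM in an E12.5 library. The 7 skeletal muscle markers summed to no more than 26.9 CPM in any library, and 5 endothelial markers to 619 to 936 CPM. In 5 libraries (E9.5 replicates 2 and 3, E10.5 replicates 1 and 2 and E12.5 replicate 4) 8 transcripts of activated macrophages and dendritic cells summed to 0.582 to 2.75 CPM, against 341 to 689 CPM in the other 13. These 5 stand apart from the rest, and results that rest on them are given with and without them where a call is lost. Without them E9.5 is 1 library, which is assumed to vary like those of other stages.

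The share of all counts held by the 33 genes together was 2.01 ± 0.137% at E16.5 and 2.53 ± 0.0959% at E9.5 (SD, n = 4 and 3). Stage means are given with the SD over the 3, 4, 4, 3 and 4 libraries of E9.5 to E16.5 throughout. In the test of any difference between the 5 stages (edgeR's quasi-likelihood F test, Benjamini-Hochberg adjusted over 18885 genes), 32 of 33 members changed, beside 71.7% of all genes tested. Pfkfb2 was the exception (adjusted p = 0.0650). The highest stage mean was at E9.5 for 18 members and at E16.5 for 12, and the ratio of the highest to the lowest stage mean ran from 1.23 to 8.47. Most members were thus highest at the start of the series or at its end, and few in between. The same count was not made over all genes tested, so it does not set the members apart from other genes.

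The reference windows around the transcription starts of 5 members are printed here as examples. They are those of Slc2a1, Ldha and Slc16a3, whose counts were lower at E16.5 than at E9.5, and of Pfkm and Ldhb, whose counts were higher, and were picked with these values known. Where a gene has several windows (2 for Ldha, 4 for Pfkm) the one with the most matches is shown. Each is 300 bases, from 250 before to 50 after an annotated start, printed 5′ to 3′ on the gene's strand from RefSeq on GRCm38.p6. Capitals mark ACGTG or its reverse complement CACGT, the core of the site bound by hypoxia-inducible factors in many glycolytic promoters. Where both overlap as the palindrome CACGTG, an E-box, the 6 letters are in capitals.
Slc2a1: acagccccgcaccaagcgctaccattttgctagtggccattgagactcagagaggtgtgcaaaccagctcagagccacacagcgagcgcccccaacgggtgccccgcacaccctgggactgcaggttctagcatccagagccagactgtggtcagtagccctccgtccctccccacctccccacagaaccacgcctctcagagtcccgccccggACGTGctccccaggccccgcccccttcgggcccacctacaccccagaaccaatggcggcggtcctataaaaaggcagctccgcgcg
Ldha: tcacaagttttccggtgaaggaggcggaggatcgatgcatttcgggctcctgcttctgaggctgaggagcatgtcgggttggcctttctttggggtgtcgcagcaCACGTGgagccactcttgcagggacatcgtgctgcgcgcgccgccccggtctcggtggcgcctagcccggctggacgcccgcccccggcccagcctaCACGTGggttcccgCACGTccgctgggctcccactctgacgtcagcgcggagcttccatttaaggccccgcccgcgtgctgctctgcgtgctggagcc
Slc16a3: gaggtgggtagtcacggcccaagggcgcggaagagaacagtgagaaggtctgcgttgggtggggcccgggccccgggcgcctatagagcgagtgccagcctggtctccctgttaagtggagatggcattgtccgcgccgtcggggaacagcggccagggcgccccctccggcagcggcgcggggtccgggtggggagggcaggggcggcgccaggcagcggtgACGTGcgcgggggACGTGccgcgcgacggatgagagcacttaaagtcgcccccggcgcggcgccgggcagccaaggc
Pfkm: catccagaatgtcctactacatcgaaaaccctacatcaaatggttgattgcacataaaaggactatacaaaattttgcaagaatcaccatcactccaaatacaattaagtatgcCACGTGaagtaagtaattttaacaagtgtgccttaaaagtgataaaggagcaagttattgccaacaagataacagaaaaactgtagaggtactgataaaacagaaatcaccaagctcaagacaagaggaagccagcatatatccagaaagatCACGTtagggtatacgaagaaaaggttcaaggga
Ldhb: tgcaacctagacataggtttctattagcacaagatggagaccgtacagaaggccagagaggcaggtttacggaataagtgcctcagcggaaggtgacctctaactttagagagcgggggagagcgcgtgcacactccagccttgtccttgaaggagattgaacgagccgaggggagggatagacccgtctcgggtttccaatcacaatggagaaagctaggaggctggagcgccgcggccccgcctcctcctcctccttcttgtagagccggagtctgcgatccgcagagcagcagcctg
The windows lie at chr4:119108495-119108794 (plus strand), chr7:46845554-46845853 (plus), chr11:120948817-120949116 (plus), chr15:98092339-98092638 (plus) and chr6:142507908-142508207 (minus). Counting each strand's match, the Ldha window holds 5 matches, of which 4 are the 2 palindromes, the Slc16a3 window 2 and the Slc2a1 window 1. The Pfkm window holds 3, of which 2 are its single palindrome, and the Ldhb window holds none. Of the 33 members, 31 had at least 1 window in the RefSeq table, all but Slc2a3 and Slc2a4, with 48 windows among them. The letters were present in 23 of those 48 (47.9%), and in 19.6% of the 32851 windows of all genes. By gene, 19 of 31 members (61.3%) had a window with the motif, against 21.8% of all symbols. Among members with a window, the motif was present for 11 of 15 that were lower at E16.5 than at E9.5, 4 of 10 that were higher and 4 of 6 that did not pass the test. A match is a run of letters and says nothing of binding in these hearts.

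Between E16.5 and E9.5 the glucose transporters moved in opposite directions: Slc2a1 and Slc2a3 fell and Slc2a4 rose. Slc2a1 (chr4:119108711-119137983, plus strand), the basal transporter of many embryonic tissues, had 1275, 1224 and 1354 CPM at E9.5, 881, 984, 967 and 894 CPM at E10.5, and 431, 449, 534 and 525 CPM at E12.5. It had 364, 379.9 and 279.6 CPM at E14.5 and 272, 214, 176 and 204 CPM at E16.5. Every library of a stage lay below every library of the stage before it. The log2 fold change of E16.5 over E9.5 was -2.57 ± 0.127 (SE; adjusted p = 1.56e-12, edgeR), and Slc2a1 was the one member called lower in all 4 intervals between neighbouring stages. Without the 5 libraries that stand apart, 2 of these intervals did not pass, E10.5 against E9.5 (-0.45, adjusted p = 0.272) and E14.5 against E12.5 (-0.46, adjusted p = 0.0553). In RNA from bulk tissue, fewer cells of a type and less RNA per cell cannot be told apart, here and below.

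Slc2a3 (chr6:122727809-122801640, minus strand), a high-affinity transporter best known from neurons and the early embryo, had 155, 161 and 224 CPM at E9.5, 94.2, 91.5, 99.4 and 96.7 CPM at E10.5 and 43.5, 55.0, 64.7 and 46.7 CPM at E12.5. It had 48.2, 44.9 and 28.9 CPM at E14.5 and 23.1, 19.0, 21.5 and 21.5 CPM at E16.5. E12.5 and E14.5 overlapped, and all 4 E16.5 libraries lay below every earlier one. This was the strongest fall among the members, a log2 fold change of -3.08 ± 0.169 for E16.5 over E9.5 (adjusted p = 3.73e-11, edgeR).

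Slc2a4 (chr11:69942539-69948188, minus strand), the insulin-responsive transporter of adult muscle and fat, had 13.95, 11.8 and 13.2 CPM at E9.5, 15.6, 16.9, 16.8 and 16.8 CPM at E10.5 and 26.5, 26.4, 29.2 and 27.7 CPM at E12.5. It had 36.8, 38.5 and 35.4 CPM at E14.5 and 68.9, 63.0, 57.6 and 58.3 CPM at E16.5. No library overlapped with those of a neighbouring stage, and each stage lay above the one before. The log2 fold change of E16.5 over E9.5 was 2.25 ± 0.0828 (adjusted p = 2.58e-14, edgeR). Slc2a4 was called higher in all 4 intervals, of which E10.5 against E9.5 did not pass without the 5 libraries that stand apart (0.27, adjusted p = 0.25).

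Levels of different genes can be set side by side only per length. The length used here and below joins all annotated exons of a gene, so the size of a share depends on it. Per kilobase of exon Slc2a1 was the highest of the 3 transporters at every stage. Its share of their summed CPM per kilobase was 92.8 ± 0.906% at E9.5 and 93.7 ± 0.344% at E10.5, then 90.1 ± 0.788% at E12.5, 85.6 ± 0.681% at E14.5 and finally 74.6 ± 2.09% at E16.5 (SD, n = 3, 4, 4, 3 and 4). The share of Slc2a4 was 0.947 ± 0.0728%, 1.68 ± 0.0642%, 5.17 ± 0.328%, 9.46 ± 1.19% and 21.8 ± 1.67% in the same stages. The sum over the 3 was 394.9 ± 23.6 CPM per kilobase at E9.5 and 283.6 ± 14.8 at E10.5, then 153.3 ± 15.9 at E12.5, 113.6 ± 17.2 at E14.5 and finally 82.6 ± 13.0 at E16.5. The summed transporter transcript level was thus lower at each stage than at the one before, while its makeup moved toward the muscle form.

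**Figure D1:**
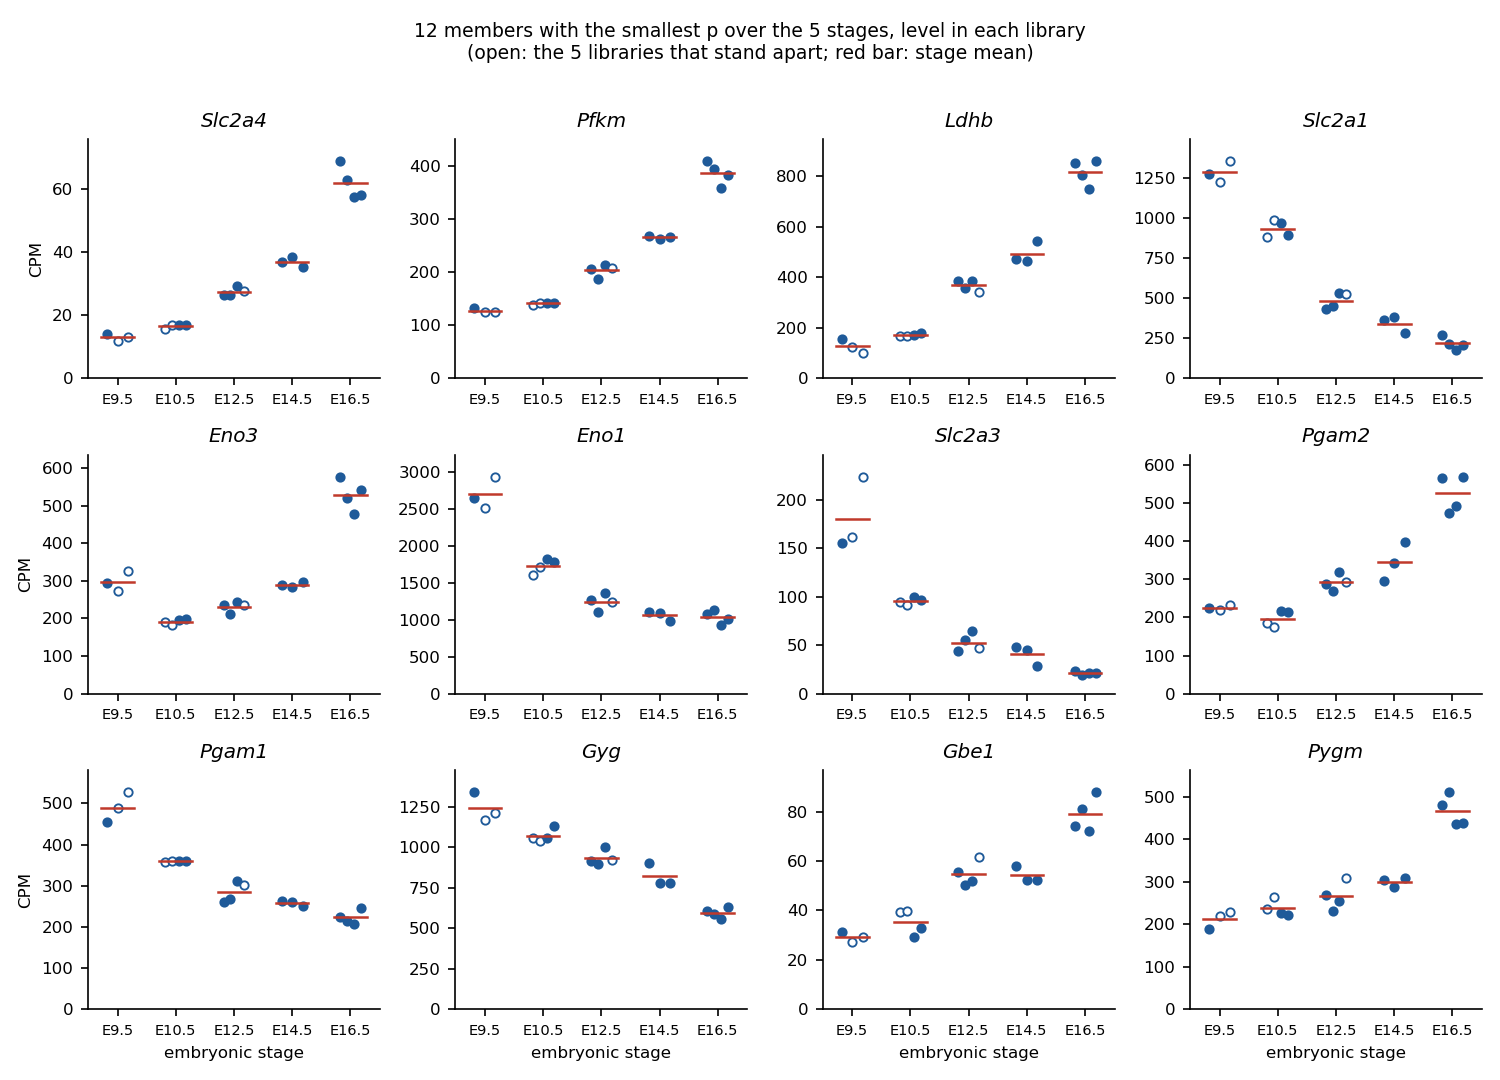
TMM-scaled CPM (y axis, from 0) in each library by embryonic stage (x axis) for the 12 members with the smallest p over the 5 stages. Points are libraries, open where a library is 1 of the 5 that stand apart, and red bars are stage means. Slc2a1 lies between 176 and 272 CPM at E16.5, against 1224 to 1354 CPM at E9.5, while Ldhb lies between 749 and 859 CPM at E16.5, against 100.4 to 154 CPM at E9.5.

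At the upper steps of glycolysis the muscle form of phosphofructokinase rose while the liver form fell, and total aldolase transcript ended where it began. Pfkm (chr15:98092589-98132451, plus strand), muscle phosphofructokinase, had 132, 126 and 124 CPM at E9.5, 139, 143, 143 and 142 CPM at E10.5 and 206, 187, 213 and 208 CPM at E12.5. It had 268, 263 and 266 CPM at E14.5 and 409.7, 395, 359 and 384 CPM at E16.5. Each stage lay above the one before with no overlap, and the log2 fold change of E16.5 over E9.5 was 1.60 ± 0.0648 (adjusted p = 8.86e-14, edgeR). A predicted gene, Gm26513, shares 10.2% of the exonic bases of Pfkm on the same strand, so a small part of its reads is uncertain.

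Pfkl, the liver form, had 531, 516 and 550.2 CPM at E9.5, 417, 433, 457 and 414 CPM at E10.5 and 384, 369.6, 477 and 422 CPM at E12.5. It had 444, 444 and 415 CPM at E14.5 and 439.7, 393, 343 and 380.1 CPM at E16.5. All 3 E9.5 libraries lay above those of every later stage, and the other stages overlapped (E16.5 over E9.5: log2 fold change -0.45 ± 0.0870, adjusted p = 0.000139, edgeR). Pfkp, the platelet form, had 294, 317 and 366 CPM at E9.5, 259, 296, 273 and 273 CPM at E10.5 and 259, 251, 269 and 253 CPM at E12.5. It had 336, 363 and 304 CPM at E14.5 and 336, 341, 292 and 283 CPM at E16.5. E16.5 and E9.5 overlapped and did not differ beyond the spread (log2 fold change -0.06 ± 0.0866, adjusted p = 0.580), and the called step was E14.5 against E12.5 (0.38 ± 0.0862, adjusted p = 0.00544).

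Per kilobase, Pfkm was the most abundant of the 3 phosphofructokinases at E16.5 and Pfkl at E9.5. The exon lengths used were 3340 bases for Pfkm, 6675 for Pfkl and 13401 for Pfkp. In counts, Pfkl to Pfkm was 0.955 to 1.07 at E16.5, so the lead of Pfkm over Pfkl there rests on the lengths. The share of Pfkm was 26.8 ± 1.40% at E9.5 and 33.3 ± 0.677% at E10.5, then 43.0 ± 1.44% at E12.5, 46.9 ± 1.38% at E14.5 and finally 58.7 ± 1.01% at E16.5 (SD). The summed level of the 3 was 197.5 ± 13.98 CPM per kilobase at E16.5 and 142.2 ± 4.3 at E9.5.

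The aldolase transcripts were almost all Aldoa, the form of muscle and most other tissues. Aldoa had 2007, 2002 and 2245 CPM at E9.5, 1501, 1565, 1639 and 1622 CPM at E10.5 and 1588, 1318, 1685 and 1557 CPM at E12.5. It had 1693, 1562 and 1683 CPM at E14.5 and 2318, 2108, 1836 and 2067 CPM at E16.5. The 3 middle stages lay below E9.5, and E16.5 overlapped with E9.5 (log2 fold change -0.0013 ± 0.0867, adjusted p = 0.991, edgeR). Aldoc, the brain form, had 15.7, 8.86 and 8.47 CPM at E9.5, 7.91, 8.64, 13.0 and 12.01 CPM at E10.5 and 16.8, 12.4, 14.48 and 10.1 CPM at E12.5. It had 17.1, 17.9 and 20.9 CPM at E14.5 and 25.1, 28.1, 21.1 and 25.6 CPM at E16.5. Within E9.5 and E10.5 the libraries that stand apart had the lower Aldoc values. The log2 fold change of E16.5 over E9.5 was 1.18 ± 0.227 with all libraries (adjusted p = 0.000217) and 0.67 without those 5 (adjusted p = 0.0036). Aldoc reached only 1.06 ± 0.0953% of aldolase CPM per kilobase at E16.5. The sum of 6 neuronal markers was also lower in the libraries that stand apart, 26.4 and 13.5 CPM beside 87.4 CPM at E9.5. At E10.5 it was 25.3 and 22.9 CPM beside 68.8 and 79.7 CPM, and in the E16.5 libraries 98.5 to 142 CPM. Its part in the Aldoc values was not tested.

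The remaining upper enzymes are the hexokinases and the isomerases. Hk1, the housekeeping hexokinase, averaged 555 ± 35.3, 588 ± 48.3, 464 ± 39.7, 414 ± 18.9 and 548 ± 54.7 CPM from E9.5 to E16.5, so that the last and first stage did not differ beyond the spread (adjusted p = 0.865). Hk2, the inducible hexokinase of muscle, averaged 211 ± 31.3, 152 ± 11.3, 101 ± 11.3, 114 ± 37.1 and 122 ± 29.6 CPM. Its log2 fold change of E16.5 over E9.5 was -0.79 ± 0.198 (adjusted p = 0.00239) and -0.60 without the libraries that stand apart (adjusted p = 0.188). Gpi1, glucose phosphate isomerase, averaged 1060 ± 69.5, 860.5 ± 16.2, 875 ± 70.5, 879 ± 10.2 and 1024 ± 63.3 CPM, and Tpi1, triose phosphate isomerase, 1217 ± 82.6, 1036 ± 53.9, 1164 ± 124, 1210.0 ± 25.3 and 1415 ± 169.8 CPM. Gpi1 at E16.5 was not called against E9.5 (edgeR, adjusted p = 0.570), and 11.5% of its exonic bases overlap Gm26762 on the opposite strand. Tpi1 just passed (log2 fold change 0.22 ± 0.0927, adjusted p = 0.0472), but without the libraries that stand apart it did not (0.12, adjusted p = 0.491).

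In the lower part of the pathway the widely expressed mutase and enolase fell and the muscle forms rose. Pgam1 (chr19:41911923-41918660, plus strand), the widely expressed phosphoglycerate mutase, had 454, 488 and 528 CPM at E9.5, 357, 360.5, 361 and 359 CPM at E10.5 and 260.4, 268, 312 and 301 CPM at E12.5. It had 264, 261 and 250.4 CPM at E14.5 and 224, 215, 207 and 247 CPM at E16.5. Only E12.5 and E14.5 overlapped among neighbouring stages, and the log2 fold change of E16.5 over E9.5 was -1.14 ± 0.0756 (adjusted p = 1.07e-10, edgeR). Pgam2 (chr11:5801640-5803733, minus strand), the muscle form, had 224, 219 and 232 CPM at E9.5, 185, 174, 216 and 213 CPM at E10.5 and 288, 269.5, 319 and 293 CPM at E12.5. It had 295, 342 and 396 CPM at E14.5 and 566, 474, 492 and 569 CPM at E16.5. All E16.5 libraries lay above all others, with a log2 fold change over E9.5 of 1.22 ± 0.104 (adjusted p = 3.63e-09, edgeR). Per kilobase, Pgam2 made up 52.1 ± 1.56% of the 2 mutases at E9.5 and 56.3 ± 2.60% at E10.5. Its share was then 70.7 ± 1.12% at E12.5, 75.6 ± 3.197% at E14.5 and finally 84.7 ± 0.752% at E16.5. In counts Pgam2 to Pgam1 was 0.439 to 0.599 over the libraries of E9.5 and E10.5. The lead of Pgam2 at those stages thus rests on the exon lengths, 840 bases for Pgam2 and 1982 for Pgam1.

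Eno1 (chr4:150236721-150248879, plus strand), the widely expressed enolase, had 2645, 2514 and 2941 CPM at E9.5, 1609.5, 1709.5, 1826 and 1783 CPM at E10.5 and 1267, 1113, 1369 and 1237 CPM at E12.5. It had 1103, 1099 and 989 CPM at E14.5 and 1082, 1137, 931 and 1013 CPM at E16.5. The first 4 stages did not overlap, and E14.5 and E16.5 did. The log2 fold change of E16.5 over E9.5 was -1.38 ± 0.0850 (adjusted p = 3.57e-11, edgeR). Eno3 (chr11:70657202-70662513, plus strand), the muscle enolase, had 295, 272 and 327 CPM at E9.5, 189.6, 182, 195 and 198 CPM at E10.5 and 236, 211, 244 and 235 CPM at E12.5. It had 288, 283 and 297 CPM at E14.5 and 578, 520.2, 479 and 541 CPM at E16.5. Eno3 was lowest in all 4 E10.5 libraries, and E14.5 overlapped with E9.5. It fell between E10.5 and E9.5 (log2 fold change -0.64 ± 0.0754, adjusted p = 6.99e-06) and rose in each later interval, most in E16.5 against E14.5 (0.87 ± 0.0774, adjusted p = 4.57e-07). Without the libraries that stand apart its E12.5 against E10.5 step did not pass (0.23, adjusted p = 0.0646). Its share of enolase CPM per kilobase was 25.4 ± 0.3002% at E9.5 and 25.5 ± 0.892% at E10.5, then 36.5 ± 0.669% at E12.5, 45.7 ± 2.13% at E14.5 and finally 61.1 ± 1.74% at E16.5. In counts Eno3 to Eno1 was 0.458 to 0.534 at E16.5. Eno3 thus led there only per kilobase, with exon lengths of 1739 bases for Eno3 and 5379 for Eno1. Both enolases were lower at E10.5 than at E9.5, with shares that differed by less than the spread between libraries.

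The other lower enzymes were lower at E10.5 than at E9.5 and then parted. Gapdh, the dehydrogenase often used as a reference transcript, averaged 4041 ± 169, 3160 ± 147, 3501 ± 282, 3661 ± 221 and 4159 ± 294 CPM from E9.5 to E16.5. At E16.5 it did not differ from E9.5 beyond the spread (log2 fold change 0.04 ± 0.0774, adjusted p = 0.658). Pgk1, phosphoglycerate kinase, averaged 1483 ± 70.6, 1139 ± 14.4, 1045 ± 109, 1020 ± 74.0 and 1010 ± 68.2 CPM, and Pkm, pyruvate kinase of muscle and embryonic tissues, 2723 ± 158, 1992 ± 74.9, 1902 ± 141, 1844 ± 68.4 and 1871 ± 139 CPM. Both were lower at E16.5 than at E9.5, by log2 fold changes of -0.55 ± 0.0797 for Pgk1 (adjusted p = 4.83e-06) and -0.54 ± 0.0746 for Pkm (adjusted p = 2.91e-06). Gene counts do not separate the splice forms of Pkm, and a predicted gene, Gm49759, shares 15.3% of its exonic bases on the same strand. Gapdh has 74 annotated copies of at least 97% identity, 71 of them pseudogenes, whose counts came to 0.482 to 0.807% of its own.

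Lactate dehydrogenase showed the largest rise of any member. Ldha (chr7:46841475-46855627, plus strand), whose subunit favours making lactate, had 3193, 2789.9 and 3151 CPM at E9.5, 1953, 1941, 2064 and 2023 CPM at E10.5 and 1592, 1569, 1985 and 1610.1 CPM at E12.5. It had 1909, 1725 and 1638 CPM at E14.5 and 2018, 1745, 1561 and 1909.9 CPM at E16.5. E9.5 lay above every other stage, and neighbouring stages overlapped after that (E16.5 over E9.5: log2 fold change -0.75 ± 0.0947, adjusted p = 8.95e-07, edgeR). Ldhb (chr6:142490249-142507957, minus strand), whose subunit prevails in the adult heart, had 154, 124 and 100.4 CPM at E9.5, 168, 168, 170.1 and 179 CPM at E10.5 and 383, 358, 386 and 342 CPM at E12.5. It had 470.4, 463 and 544 CPM at E14.5 and 853, 804, 749 and 859 CPM at E16.5. No neighbouring stages overlapped, and Ldhb was called higher in all 4 intervals. The log2 fold change of E16.5 over E9.5 was 2.70 ± 0.114 (adjusted p = 1.76e-13, edgeR) and 2.41 without the libraries that stand apart (adjusted p = 4.37e-11). Without those libraries the E10.5 against E9.5 step was 0.19 and did not pass (adjusted p = 0.419). Per kilobase, Ldhb was 8.02 ± 1.53% of the 2 subunits at E9.5 and 15.3 ± 0.372% at E10.5, then 31.5 ± 1.9996% at E12.5, 37.2 ± 3.62% at E14.5 and finally 48.8 ± 1.31% at E16.5. In counts Ldhb to Ldha was 0.423 to 0.480 at E16.5, with exon lengths of 1570 bases for Ldhb and 3310 for Ldha.

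Both lactate carriers were lower at E16.5 than at E9.5. Slc16a3 (chr11:120948480-120960868, plus strand), the monocarboxylate transporter of strongly glycolytic cells, had 491, 501 and 630.2 CPM at E9.5, 326, 336, 361 and 336 CPM at E10.5 and 232, 233, 319.8 and 265 CPM at E12.5. It had 242, 274 and 207 CPM at E14.5 and 230.3, 166, 138 and 178 CPM at E16.5. The first 3 stages were separate and the later ones overlapped, with a log2 fold change of E16.5 over E9.5 of -1.60 ± 0.148 (adjusted p = 2.65e-08, edgeR). Slc16a1, the widely expressed transporter, had 193, 168 and 189 CPM at E9.5, 165, 177, 158 and 165 CPM at E10.5 and 139, 136, 135 and 150.2 CPM at E12.5. It had 144, 138 and 133 CPM at E14.5 and 157, 165, 142 and 167 CPM at E16.5. All E16.5 values lay below all E9.5 values by a small margin (log2 fold change -0.22 ± 0.0715, adjusted p = 0.0120, passed in 26 of 29 alternatives).

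**Figure D2:**
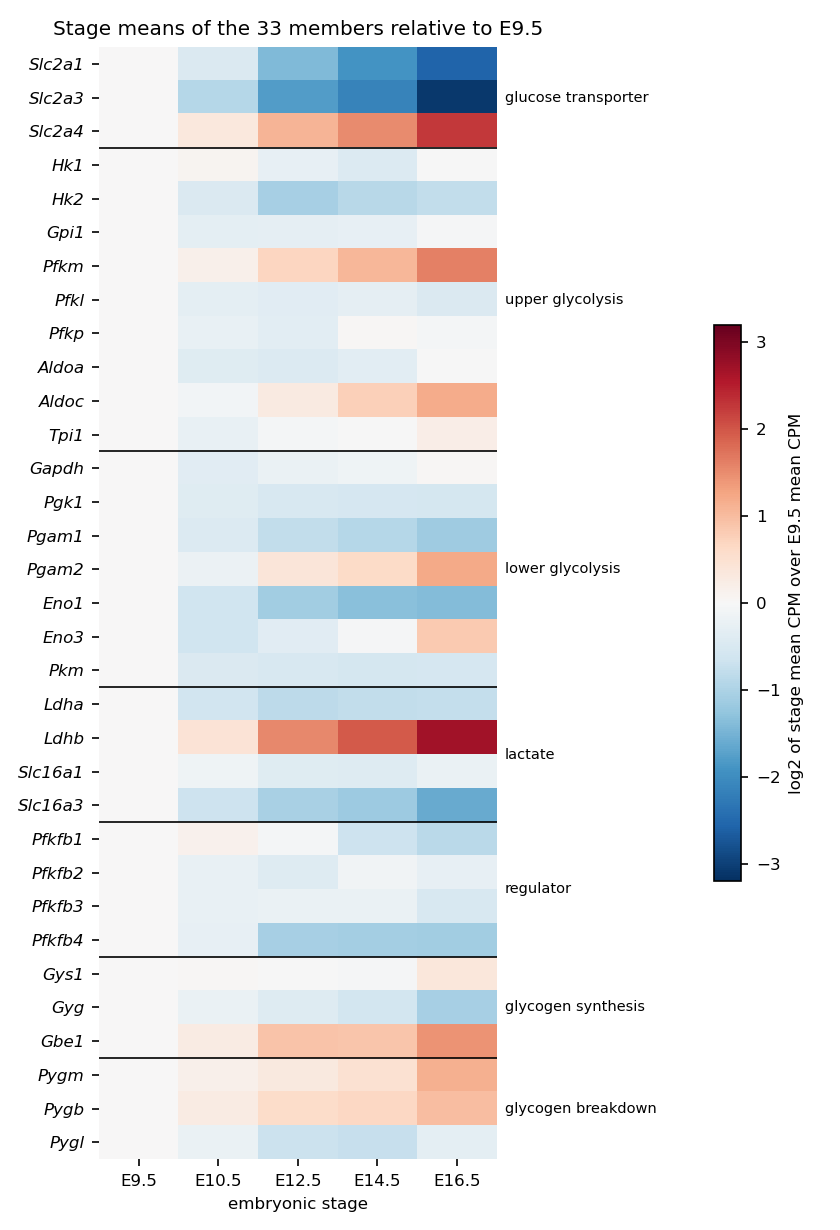
Colour gives the log2 ratio of each stage's mean CPM to the E9.5 mean, for all 33 members (down the page, grouped by role) at the 5 stages (across), red for higher and blue for lower. Within the steps of mutase, enolase and lactate dehydrogenase the muscle or heart form turns red toward E16.5 while its partner turns blue.

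The PFKFB enzymes make and remove the fructose bisphosphate that activates phosphofructokinase, and their transcripts were of low abundance. Their summed level was 12.4 ± 1.9 CPM per kilobase at E9.5 and 10.99 ± 0.12 at E10.5, then 9.7 ± 0.7 at E12.5, 9.6 ± 1.3 at E14.5 and finally 8.1 ± 0.6 at E16.5. Pfkfb3, the form with the strongest kinase activity, made up 53.1 ± 3.59% of it at E16.5 and 49.7 ± 2.25% at E9.5. Pfkfb4 averaged 11.3 ± 1.83, 9.38 ± 0.879, 5.36 ± 0.525, 5.32 ± 0.542 and 5.25 ± 0.599 CPM from E9.5 to E16.5, with its fall in E12.5 against E10.5 (log2 fold change -0.81 ± 0.124, adjusted p = 4.18e-05, edgeR). Pfkfb1 averaged 7.19 ± 0.495, 7.86 ± 0.354, 6.90 ± 1.21, 4.51 ± 0.416 and 3.92 ± 0.318 CPM and fell in E14.5 against E12.5 (-0.61 ± 0.134, adjusted p = 0.00364). Pfkfb3 averaged 32.6 ± 3.23 CPM at E16.5 and 46.9 ± 9.002 CPM at E9.5, with means between those in the other stages. It was called lower at E16.5 than at E9.5 (-0.52 ± 0.140, adjusted p = 0.00323) but not without the libraries that stand apart (-0.16, adjusted p = 0.525). Pfkfb2, the heart form, ran from 9.61 to 17.7 CPM over all libraries and was not called (E16.5 over E9.5: -0.27 ± 0.128, adjusted p = 0.0723). A predicted gene, Gm29427, shares 17.4% of its exonic bases on the same strand.

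Among the glycogen genes, the primer Gyg fell, while branching enzyme, synthase and the muscle and brain phosphorylases rose. Gyg (chr3:20122084-20155317, minus strand), glycogenin, which starts each glycogen particle, had 1342, 1168 and 1214 CPM at E9.5, 1057, 1039.9, 1055 and 1134 CPM at E10.5 and 917, 898, 1002 and 923 CPM at E12.5. It had 904, 782 and 779.9 CPM at E14.5 and 604, 587, 557 and 631 CPM at E16.5. The E16.5 libraries lay below all others (log2 fold change over E9.5 -1.06 ± 0.0729, adjusted p = 1.64e-10, edgeR), with the clearest step in E16.5 against E14.5 (-0.47 ± 0.0729, adjusted p = 0.000167). Gys1, the muscle glycogen synthase, averaged 176 ± 17.8, 179 ± 16.3, 173 ± 11.3, 170.0 ± 4.78 and 226 ± 16.4 CPM. Its rise came in E16.5 against E14.5 (0.41 ± 0.0853, adjusted p = 0.0021), and 6.47% of its exonic bases overlap Ruvbl2 on the opposite strand. Gbe1 (chr16:70313949-70569716, plus strand), the branching enzyme, had 31.3, 27.2 and 29.4 CPM at E9.5, 39.4, 39.9, 29.3 and 32.7 CPM at E10.5 and 55.4, 50.4, 52.1 and 61.5 CPM at E12.5. It had 58.1, 52.5 and 52.3 CPM at E14.5 and 74.4, 81.2, 72.3 and 88.1 CPM at E16.5. All E16.5 libraries lay above the rest, and E12.5 and E14.5 overlapped. The log2 fold change of E16.5 over E9.5 was 1.43 ± 0.108 (adjusted p = 6.57e-10).

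Glycogen phosphorylase releases glucose units from glycogen. Pygm (chr19:6384399-6398459, plus strand), the muscle form, had 189.6, 219.9 and 229.5 CPM at E9.5, 237, 265, 226 and 221 CPM at E10.5 and 267, 232, 254 and 308 CPM at E12.5. It had 303, 288 and 309 CPM at E14.5 and 481, 511, 437 and 437 CPM at E16.5. Neighbouring stages overlapped until E14.5, and all E16.5 libraries lay above the rest (E16.5 over E9.5: log2 fold change 1.13 ± 0.0978, adjusted p = 4.63e-09, edgeR). Pygb, the brain form, averaged 255 ± 17.6, 306 ± 21.5, 384 ± 33.3, 404 ± 17.1 and 501 ± 25.1 CPM from E9.5 to E16.5 and rose alongside it (0.98 ± 0.0799, adjusted p = 2.12e-09). Pygl, the liver form, averaged 76.5 ± 6.70, 65.7 ± 7.76, 47.6 ± 5.64, 45.7 ± 2.60 and 61.3 ± 5.02 CPM. At E16.5 Pygl was called lower than at E9.5 (-0.32 ± 0.101, adjusted p = 0.00933), but not without the libraries that stand apart (-0.22, adjusted p = 0.124). Per kilobase the 3 together had 258.1 ± 16.8 CPM at E16.5, against 130.3 ± 10.7 CPM at E9.5.

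Over the whole span, 11 members were higher and 16 lower at E16.5 than at E9.5, and 6 did not pass (Hk1, Gpi1, Pfkp, Aldoa, Gapdh and Pfkfb2). Of all genes tested 32.1% were higher and 32.8% lower (64.9% in either direction). The share of members called was near that of all genes tested in the higher direction and above it in the lower. The size of this gap depends on the filter. With a filter of 10 CPM in 3 libraries, 11 of 32 members were higher and 15 lower, beside 75.4% of the 10851 genes left in either direction. The median log2 fold change was -0.22 over the members and -0.0052 over all genes. Of the 33 members 14 were called with a change of at least 2-fold, beside 5454 of the 18885 genes tested. Without the libraries that stand apart 23 of the 27 calls were made, 10 higher and 13 lower, beside 51.1% of all genes in either direction. Fibroblast and cardiomyocyte marker sums were both higher in every E16.5 library than in every E9.5 library, and their part in these differences was not tested. Taken singly, the 8 cardiomyocyte markers were split, with 3 higher, 3 lower and 2 not called (median log2 fold change -0.049). Of the 6 fibroblast markers 5 were higher and none lower.

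**Figure D3:**
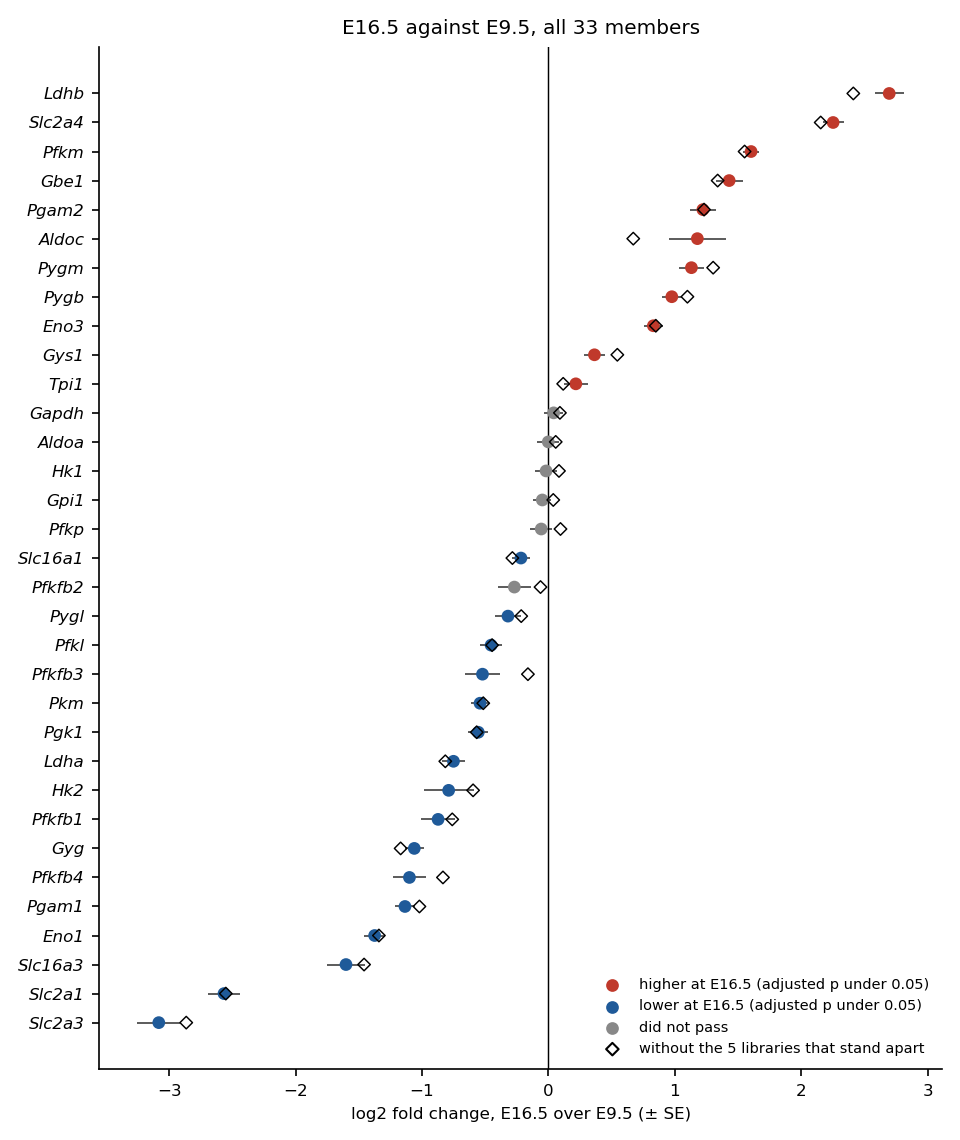
Log2 fold change of E16.5 over E9.5 (x axis, bars are SE) for each of the 33 members (y axis), red where higher, blue where lower and grey where the test was not passed. Diamonds give the value without the 5 libraries that stand apart. At both ends they lie near the value with all libraries, -2.87 beside -3.08 for Slc2a3 and 2.41 beside 2.70 for Ldhb. Some members in between moved more for their size, 0.67 beside 1.18 for Aldoc and -0.16 beside -0.52 for Pfkfb3.

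The neighbouring stages differed in which way the members moved. E10.5 against E9.5 was mostly a fall, with 3 members higher and 14 lower, beside 10.6% of all genes higher and 7.62% lower (18.2% in either direction). The lower ones included enzymes at most steps, from Gpi1, Pfkl and Aldoa to Gapdh, Pgk1, Pgam1, Eno1, Eno3, Pkm and Ldha, and the higher ones were Slc2a4, Ldhb and Pygb. The summed cardiomyocyte markers were also lower in every E10.5 library than in every E9.5 library, and their part in the fall was not tested. Scaling by library totals gave 5 higher and 13 lower, beside 17.8% of all genes in either direction. Without the libraries that stand apart, which leaves 1 library at E9.5, only Eno1, Eno3 and Ldha passed, all lower, beside 6.1% of all genes in either direction.

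In E12.5 against E10.5, 7 members were higher and 12 lower, beside 20% and 18.1% of all genes (38% in either direction). Higher were Slc2a4, Pfkm, Pgam2, Eno3, Ldhb, Gbe1 and Pygb. Lower were Slc2a1, Slc2a3, Hk1, Hk2, Pgam1, Eno1, Ldha, Slc16a1, Slc16a3, Pfkfb4, Gyg and Pygl. With the filter of 10 CPM in 3 libraries, 8 of 32 members were higher and 10 lower, beside 51.5% of the 10851 genes left in either direction. Without the libraries that stand apart 6 were higher and 8 lower, beside 28% of all genes in either direction, and the calls lost were Hk2 (adjusted p = 0.194), Eno3 (0.0646), Ldha (0.111), Slc16a3 (0.166) and Gyg (0.0722). In E14.5 against E12.5 few members were called, 5 higher (Slc2a4, Pfkm, Pfkp, Eno3 and Ldhb) and 2 lower (Slc2a1 and Pfkfb1), beside 6.29% and 8.56% of all genes (14.8% in either direction). A term for the libraries that stand apart gave 7 higher and 4 lower, beside 18.8% of all genes in either direction. The medians over the members in these intervals were -0.066 and 0.015 on the log2 scale.

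E16.5 against E14.5 was mostly a rise, with 13 members higher and 4 lower, beside 10.1% of all genes higher and 8.74% lower (18.9% in either direction). The higher ones spanned hexokinase (Hk1), Gpi1, Pfkm, Aldoa, Pgam2, Eno3, Ldhb, Slc2a4 and 5 of the 6 glycogen genes, and the lower ones were Slc2a1, Slc2a3, Slc16a3 and Gyg. Slc16a3 only just passed (edgeR, adjusted p = 0.0472) and was called in 11 of 29 alternatives, and Gpi1 (adjusted p = 0.0391) in 18 of 29. The median log2 fold change was 0.18 over the members and -0.024 over all genes. Scaling by library totals moved the all-gene median by -0.13 and split the members into 10 higher and 7 lower, beside 26.5% of all genes called in either direction. The cardiomyocyte marker sum was 34172 to 39534 CPM at E16.5, against 23846 to 26643 CPM at E14.5, and its part in the rise was not tested. None of the 5 libraries that stand apart is from these stages. Without them 14 members were higher and 3 lower, beside 22.7% of all genes in either direction. Aldoc was then called higher (edgeR, adjusted p = 0.0117), and the call of Slc16a3 was lost (adjusted p = 0.0954).

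**Figure D4:**
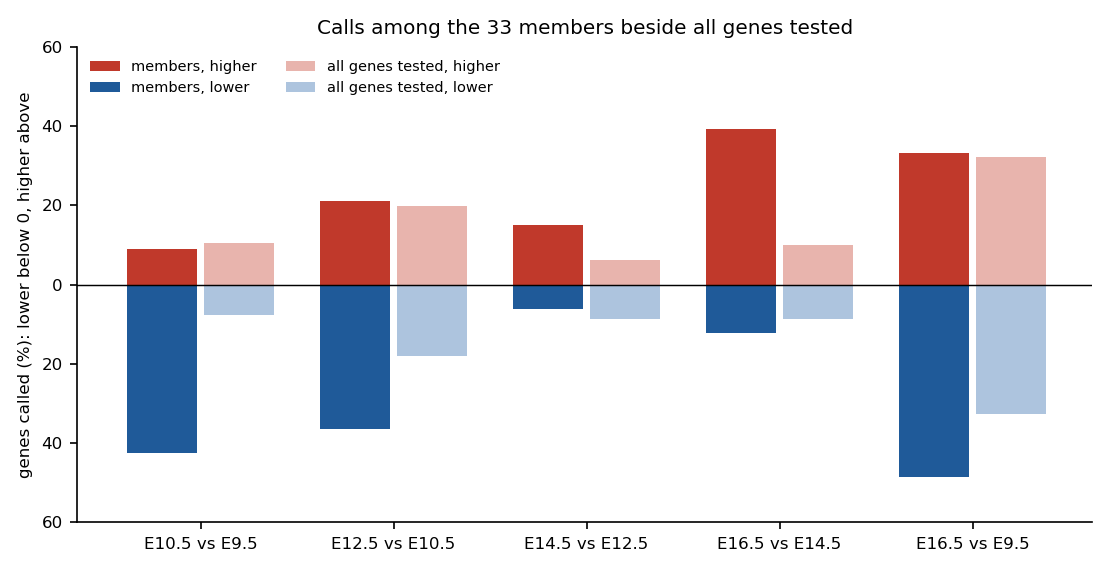
Share of genes called in each comparison (y axis, percent, higher above 0 and lower below), for the 33 members (strong colours) and for all genes tested (pale colours). The members' bars point down in E10.5 against E9.5 (3 higher, 14 lower) and up in E16.5 against E14.5 (13 higher, 4 lower).

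The ratio of 2 isoforms within a library needs no scaling between libraries, so 10 such ratios were compared between E14.5 and E16.5 (7 libraries) and E9.5 and E10.5 (7 libraries) by exact two-sided permutation tests, adjusted over the 10. For 8 of the 10 the adjusted p was under 0.05. The Slc2a4 to Slc2a1 count ratio was 0.101 to 0.327 in the later libraries, against 0.00968 to 0.0188 in the earlier ones, a difference of 3.77 in mean log2 ratio. Ldhb to Ldha was 0.246 to 0.480 in the later libraries and 0.0319 to 0.0883 in the earlier ones (difference 2.56). Pgam2 to Pgam1 was 1.12 to 2.53 in the later and 0.439 to 0.599 in the earlier libraries (1.86), and Eno3 to Eno1 was 0.257 to 0.534 and 0.107 to 0.118 in the same order (1.82). Pfkl to Pfkm was 0.955 to 1.69 in the later and 2.93 to 4.43 in the earlier libraries (difference -1.50), and Pfkp to Pfkm differed by -1.16. Aldoc to Aldoa differed by 1.01. For each of these 7 ratios the later and earlier libraries did not overlap, and the exact permutation p was 0.000583, the smallest that the 3432 splits allow (adjusted p = 0.000833). Slc16a3 to Slc16a1 was 0.974 to 1.99 in the later and 1.90 to 3.33 in the earlier libraries, which overlap (difference -0.83, exact permutation p = 0.00175, adjusted p = 0.00219).

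The remaining pair of ratios did not pass. Hk2 to Hk1 was 0.183 to 0.337 in the later and 0.253 to 0.416 in the earlier libraries (difference -0.35, exact permutation p = 0.0693, adjusted p = 0.0771). Pygm to Pygb was 0.713 to 0.9701 in the later and 0.747 to 0.873 in the earlier libraries (difference 0.080, exact permutation p = 0.297, adjusted p = 0.297). Within the later group, Pygm to Pygb was 0.882 to 0.9701 at E16.5 and 0.713 to 0.799 at E14.5. With E16.5 set against E10.5 alone its difference was 0.27 and passed (exact permutation, adjusted p = 0.0317). With 4 libraries on each side few splits exist, and all 9 ratios that passed there had this same adjusted p. Where a step showed an isoform shift, the form that gained was the one known from adult muscle or heart for glucose transport, phosphofructokinase, mutase, enolase and lactate dehydrogenase, the brain form for aldolase, and the widely expressed Slc16a1 for lactate transport. The skeletal muscle markers summed to 6.16 to 7.10 CPM at E16.5, against 19.2 to 21.6 CPM at E9.5, and of the 3 markers tested Tnnt3 and Actn3 were lower (log2 fold changes -2.17 and -1.15, adjusted p = 6.26e-11 and 3.45e-05). Myog was higher, with 0.496 ± 0.145 CPM at E16.5 and 0 CPM in all 3 E9.5 libraries (adjusted p = 1.05e-05), and Myod1, Myf5, Pax7 and Mymk did not pass the low-count filter.

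**Figure D5:**
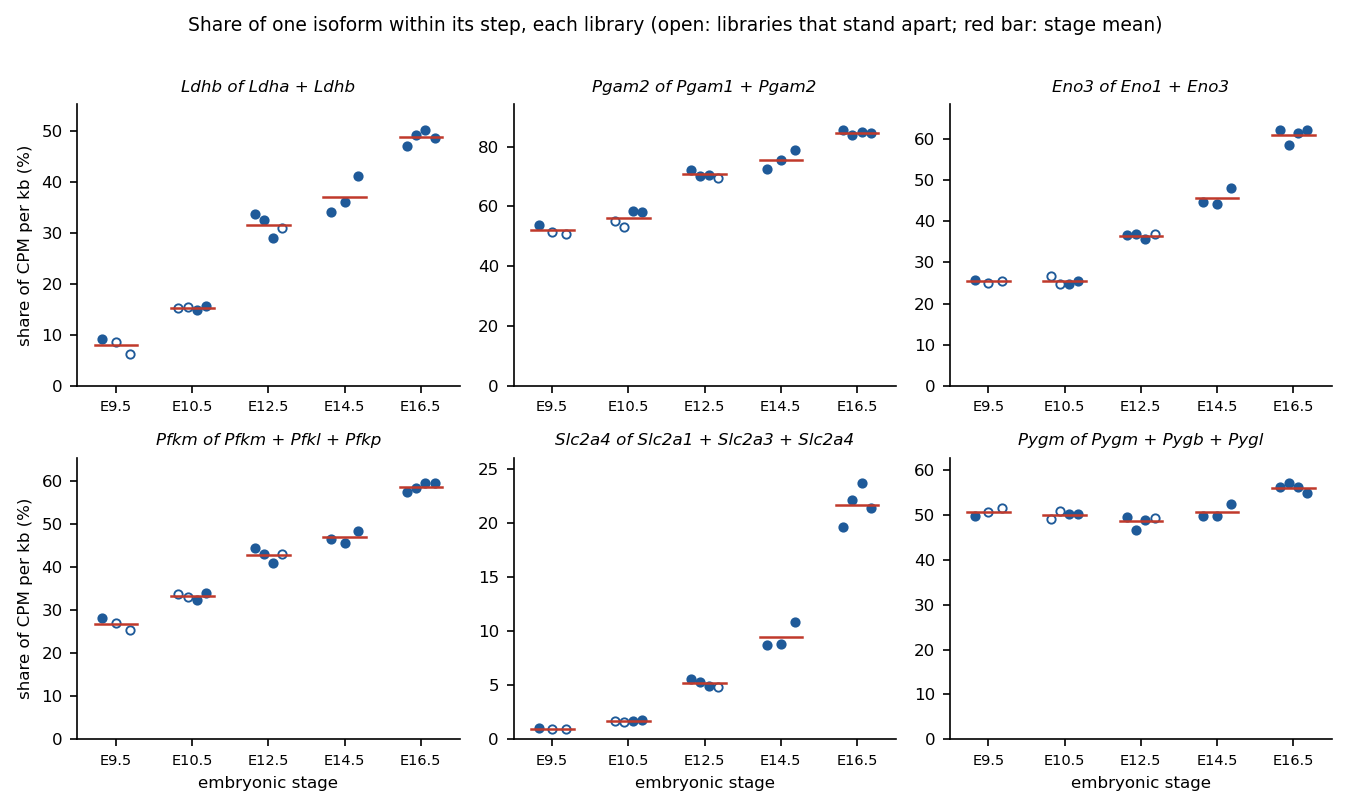
Share of one isoform in the summed CPM per kilobase of its step (y axis, percent, from 0) in each library by embryonic stage (x axis), for 6 steps. Points are libraries, open where a library is 1 of the 5 that stand apart, and red bars are stage means. Ldhb goes up through the stages to 48.8% at E16.5, while Pygm stays between 48.7 and 56.1% of phosphorylase at all stages by stage mean.

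Genes next to these pathways were read from lists that hold no member. Of all genes tested, 32.1% were higher and 32.8% lower at E16.5 than at E9.5, and the counts of each list are to be read beside that. Of 21 other glycogen genes tested, 12 were higher (57.1%) and 3 lower (14.3%) at E16.5 than at E9.5, with a median log2 fold change of 0.48. Ppp1r3c, which targets a phosphatase to glycogen, averaged 246 ± 25.5 CPM at E16.5 and 79.7 ± 5.41 CPM at E9.5 (log2 fold change 1.62, adjusted p = 4.03e-10, edgeR). Gaa, the lysosomal glucosidase that digests glycogen, averaged 174 ± 5.603 CPM at E16.5 and 90.1 ± 7.39 CPM at E9.5 (0.95, adjusted p = 4.67e-10). Of 8 pentose phosphate genes 1 was higher and 4 were lower, with a median of -0.41. Pgd and G6pdx, both NADPH-producing dehydrogenases of that pathway, averaged 87.4 ± 4.79 and 17.7 ± 0.955 CPM at E16.5, against 170.8 ± 8.72 and 28.9 ± 1.93 CPM at E9.5 (log2 fold changes -0.97 and -0.70, adjusted p = 7.03e-10 and 1.95e-08).

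Of 8 hexosamine and polyol genes 2 were higher and 6 lower at E16.5 than at E9.5, with a median of -0.74. Gfpt2, which starts hexosamine synthesis, averaged 11.8 ± 0.848 CPM at E16.5 and 50.4 ± 16.51 CPM at E9.5 (log2 fold change -2.09, adjusted p = 5.02e-10, edgeR). Sord, sorbitol dehydrogenase of the polyol pathway, averaged 92.9 ± 10.52 CPM at E16.5 and 31.9 ± 1.68 CPM at E9.5 (1.54, adjusted p = 1.51e-10). Of 18 other glycolytic and sugar or lactate transport isoforms tested, 6 were higher and 6 lower. Hkdc1, a hexokinase-like gene, averaged 0.157 ± 0.0462 CPM at E16.5 and 5.21 ± 1.23 CPM at E9.5 (-5.03, adjusted p = 2.36e-12), and Adpgk, the ADP-dependent glucokinase, 22.9 ± 1.12 and 40.5 ± 1.96 CPM in the same stages (-0.82, adjusted p = 6.29e-09). Of the 8 genes of gluconeogenesis only 4 passed the low-count filter, of which Pck2, the mitochondrial carboxykinase, was higher (1.23, adjusted p = 2.24e-10) and Pcx, pyruvate carboxylase, lower (-0.55, adjusted p = 1.40e-05).

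Regulators and other hypoxia-responsive genes moved both ways. Of 15 regulators of glycolysis, 6 were higher and 7 lower at E16.5 than at E9.5. Epas1, a hypoxia-inducible factor prominent in endothelium, averaged 67.4 ± 5.95 CPM at E16.5 and 17.9 ± 1.83 CPM at E9.5 (log2 fold change 1.91, adjusted p = 5.56e-12, edgeR). Mycn, a growth-promoting transcription factor, averaged 32.8 ± 1.25 CPM at E16.5 and 93.2 ± 5.22 CPM at E9.5 (-1.51, adjusted p = 1.21e-11). Of 15 hypoxia-responsive genes outside the members 7 were higher and 4 lower, with a median of -0.057. Ndrg1 averaged 80.1 ± 16.6 CPM at E16.5 and 4.85 ± 0.866 CPM at E9.5 (4.04, adjusted p = 2.36e-11). Egln3, a prolyl hydroxylase that marks hypoxia-inducible factors for removal, averaged 98.9 ± 17.9 CPM at E16.5 and 9.49 ± 1.49 CPM at E9.5 (3.38, adjusted p = 6.78e-11). The counts of these lists too stand beside 32.1% higher and 32.8% lower among all genes tested.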

How the data were processed

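Each library had a table of raw read counts per gene, as the authors deposited it. Per the submitters' processing notes, Trimmomatic 0.36, STAR 2.5.2b and featureCounts of Subread 1.5.2 were used with GRCm38/mm10; neither the strand setting nor the annotation release is stated in the sources used here, so overlapping genes are uncertain. Of 49315 identifiers 49056 matched GENCODE M21, which gave symbols, coordinates and exon lengths; identifiers without a symbol held 0.0115 to 0.0169% of counts. A count of 0 allows up to 3 counts, 0.0657 to 0.0976 CPM, which covers counting error only. All 24 pairs of libraries within a stage exceeded sampling noise, with a chi-square of 6.06 to 79.8 per degree of freedom.

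From these counts, genes were filtered with filterByExpr (18885 left), scaled with TMM and fitted with edgeR 4.0.16 (robust quasi-likelihood, stage only, all 18 libraries) in R 4.3.3, with Benjamini-Hochberg adjustment over all genes and a threshold of 0.05. CPM use TMM-scaled totals; CPM per kilobase divide by the union of exons. The scripts were tested on simulated counts. The members, lists and tests were chosen with earlier results of these data known. Values in every library were given for the 12 members with the smallest p over the stages and for both genes of each isoform ratio that passed; from other lists, the 2 genes with the smallest p in E16.5 against E9.5. The 5 libraries that stand apart are those with under 100 CPM summed over Atp6v0d2, Cd74, Chil3, Gpnmb, H2-Aa, Itgax, Mmp12 and Mmp13. Alternatives were RLE factors, library totals, TMM without haemoglobin and mitochondrial genes, 2 other filters, DESeq2 1.42.0, limma-voom (3.58.1), only the stages compared, a replicate block, a term for or removal of the 5 libraries, and leaving out each library. Copies were sought among annotated transcripts at 97% identity over 200 bases.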

Additional observations from a re-analysis of the deposited data

Results flagged for a closer look

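Library values of the members were screened within each stage of 4 libraries for a single value far from the rest, 99 groups of values in all, of which chance alone picks out about 1 in 20. The 5 found are given here as values. Gpi1 had 884 CPM in E10.5 replicate 3, above the 848 to 855 CPM of the other 3 libraries of that stage. Ldha had 1985 CPM in E12.5 replicate 3, above 1569 to 1610 CPM in the others. Slc2a4 had 15.6 CPM in E10.5 replicate 1, below 16.8 to 16.9 CPM in the others. Pfkfb4 had 6.14 CPM in E16.5 replicate 3, above 4.87 to 5.05 CPM in the others. Pygb had 433 CPM in E12.5 replicate 4, 1 of the 5 libraries that stand apart, above 363 to 375 CPM in the others.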

How the results depend on the processing

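In E10.5 against E9.5, 17 members were called in all libraries and 3 without the 5 libraries that stand apart, which leaves fewer samples. In E14.5 against E12.5 a term for those libraries gave 11 members in place of 7, and the cause was not tested. Other alternatives kept the total of members called in both directions within 1.5 times, and with E16.5 against E10.5 only, 9 ratios passed. Within 1 direction, library totals gave 7 members lower in place of 4 in E16.5 against E14.5 and 5 higher in place of 3 in E10.5 against E9.5. No called fold change or ratio changed sign. Leaving out 1 library at a time gave 13 to 17 members in E10.5 against E9.5, 15 to 21 in E12.5 against E10.5, 5 to 9 in E14.5 against E12.5, 14 to 18 in E16.5 against E14.5, 24 to 28 in E16.5 against E9.5, 31 to 33 over the 5 stages and 8 to 9 of the isoform ratios. Replicate numbers did not pair the libraries: same-numbered libraries of different stages correlated at a median r of -0.108 and 8 of 33 pairs were over 0.1. With the replicate block the counts were 17, 18, 7, 16 and 26 in the 5 comparisons and 31 over the stages. The ratios have no block, since their test pools stages. Depth did not limit detection of any member: the lowest, Pfkfb1, had at least 3.52 CPM in every library, against 0.0976 CPM for the highest level that a count of 0 allows.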
